A study of Mus musculus with 4 samples.

Results

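The interferon-induced gene families were described over 4 arrays of mouse epididymal fat. Members were all genes of the array annotation whose symbol begins with Ifit, Oas or Isg, or with Ifi, Irf, Gbp or Mx and a digit. The rule found 59 of 19505 genes: 12 Oas, 13 Ifi, 8 Irf, 3 Irf2bp, 6 Ifit, 6 Ifitm, 6 Gbp, 3 Isg and 2 Mx genes. Another 12 RefSeq coding genes whose symbols match the rule are not analysed here. The rule is one of names, and some members are no classical interferon targets. Irf2bp1, Irf2bp2 and Irf2bpl encode partners of IRF2, Ifitm5 belongs to bone, and Isg20l2 resembles Isg20 in sequence.

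All 4 arrays (Clariom S Mouse, a 1-colour Affymetrix design) held RNA of epididymal adipose tissue of male mice, 1 array per group. The groups were GW4869 with overload, GW4869 with sham surgery, vehicle with overload and vehicle with sham surgery. GW4869 is an inhibitor of extracellular vesicle release, given against DMSO as vehicle, and overload was synergist ablation, in which a muscle is loaded by removing those that assist it. The strain, age, dose, time after surgery, and number of mice behind an array were not given in the sources used here. With 1 array per group no difference has a replicate check, so no p-value was computed and every value describes these arrays.

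Interferons are secreted alarm signals of infection and tissue damage. Type I interferons and interferon gamma bind separate receptors, which act through JAK kinases and STAT proteins. Type I signalling brings a complex with STAT2 and IRF9 to the interferon-stimulated response element (ISRE), whereas interferon gamma acts through the gamma-activated site (GAS). The induced proteins include IFITs, which bind viral RNA, OAS enzymes, which sense double-stranded RNA, MX and GBP GTPases, and IFITM proteins, which block viral entry. In fat, macrophages, endothelial cells and adipocytes can all express such genes.

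The 59 members had 1 probe set each. A floor at log2 4.67, the 40th percentile of gene means, left 43 members, and 11 of the other 16 lay under it on every array: Ifit1bl2, Ifitm5, Oas1d, Oas1e, Oas1f, Oas1h, Oas3, Oasl1, Ifi214, Ifi44l and Ifi27l2b. The 95th percentile of antigenomic background probes was between 6.34 and 6.40, and 28 members stood above 6.40 on all arrays. A further 23 members did not pass 6.40 on any array, 7 of them among the 43, and differences between such readings lie within background. Differences are those of the deposited values, except where one against a reading under the floor is given as a bound, with the floor in that reading's place. Counts and medians over members refer to the 43, and a member could pass through 1 high array.

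The arrays also differed in RNA of other cells. Adipocyte markers were above 6.40 in 16 of 16 measured genes on every array, with medians of 16.97 (GW4869 overload), 17.28 (GW4869 sham), 17.42 (vehicle overload) and 16.78 (vehicle sham). Epididymal epithelium markers above 6.40 numbered 13 of 14 on GW4869 overload, 2 on GW4869 sham, 1 on vehicle overload and 5 on vehicle sham, and the log2 of their summed level was 20.13, 13.21, 8.06 and 17.76. Sperm and testis markers numbered 3, 0, 0 and 14 of 14 on the same arrays, with a log2 summed level of 9.07, 7.19, 7.91 and 19.45. For 5 genes of the distal tract (epididymal tail and vas deferens), picked in earlier work after values were seen, the medians were 4.48, 12.57, 3.35 and 12.05. In bulk RNA, fewer cells of a type and less RNA per cell cannot be told apart.

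Promoter windows from 250 bases before to 50 bases after the start site were taken from RefSeq (build GRCm38.p6) for 46 of the 59 members. The ISRE core searched was GAAA, any 2 bases and GAAA again, and the GAS was TTCNNNGAA, each on both strands, and matches may overlap. An ISRE core match lay in at least 1 window of 21 of 46 members (45.7%), against 3.99% of all 27025 genes in the table. The 21 are not all separate sequences. The matches of Ifit1 and Ifit1bl2 are the same bases in overlapping windows on opposite strands, and the windows of Ifit3 and Ifit3b are near-identical. Those of Ifi208 and Ifi213 are near-identical too. The windows of Ifi207 and Ifi211, and of Oas1a and Oas1g, closely resemble each other. A GAS match lay in 11 of 46 members (23.9%), against 9.55% of all genes. The windows below belong to 5 members that stood higher under GW4869 in sham and in overloaded mice, 3 with a match and 2 without. Capitals mark ISRE core matches, and each run is written 5′ to 3′ on the gene's strand.
Ifit3 (chr19:34583279-34583578, plus strand): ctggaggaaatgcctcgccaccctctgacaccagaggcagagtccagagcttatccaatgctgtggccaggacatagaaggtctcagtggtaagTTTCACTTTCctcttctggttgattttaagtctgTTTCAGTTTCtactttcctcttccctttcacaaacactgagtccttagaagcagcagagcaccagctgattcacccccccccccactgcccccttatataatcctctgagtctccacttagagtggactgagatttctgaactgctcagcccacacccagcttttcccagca
Ifit1 (chr19:34640639-34640938, plus strand): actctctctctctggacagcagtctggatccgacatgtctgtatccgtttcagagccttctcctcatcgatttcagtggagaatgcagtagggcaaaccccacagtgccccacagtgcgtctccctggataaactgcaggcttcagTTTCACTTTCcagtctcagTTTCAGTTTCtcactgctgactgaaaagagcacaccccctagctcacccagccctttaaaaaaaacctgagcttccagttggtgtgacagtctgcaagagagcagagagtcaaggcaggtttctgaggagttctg
Ifi207 (chr1:173741760-173742059, minus strand): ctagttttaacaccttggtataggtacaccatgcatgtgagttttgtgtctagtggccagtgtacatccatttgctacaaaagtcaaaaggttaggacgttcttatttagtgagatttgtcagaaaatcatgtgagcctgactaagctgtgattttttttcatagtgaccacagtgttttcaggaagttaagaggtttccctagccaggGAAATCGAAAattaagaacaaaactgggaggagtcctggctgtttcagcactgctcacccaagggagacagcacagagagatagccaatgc
Oasl2 (chr5:114896684-114896983, plus strand): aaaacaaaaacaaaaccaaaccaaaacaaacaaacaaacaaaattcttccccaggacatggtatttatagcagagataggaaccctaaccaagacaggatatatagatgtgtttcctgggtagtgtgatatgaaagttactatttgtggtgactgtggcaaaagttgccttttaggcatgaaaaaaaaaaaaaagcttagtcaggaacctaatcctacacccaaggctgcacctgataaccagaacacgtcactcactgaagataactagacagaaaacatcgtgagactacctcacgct
Irf7 (chr7:141266375-141266674, minus strand): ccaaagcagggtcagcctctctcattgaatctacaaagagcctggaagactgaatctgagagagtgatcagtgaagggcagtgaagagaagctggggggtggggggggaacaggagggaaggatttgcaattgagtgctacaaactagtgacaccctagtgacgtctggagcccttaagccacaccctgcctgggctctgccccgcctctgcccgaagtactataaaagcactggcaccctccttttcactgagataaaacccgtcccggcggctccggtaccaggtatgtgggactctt
Ifit3 and Ifit1 held 2 ISRE core matches each, upstream of the start site, and Ifi207 held 1. The Oasl2 and Irf7 windows hold neither motif in these letters.

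**Figure D1:**
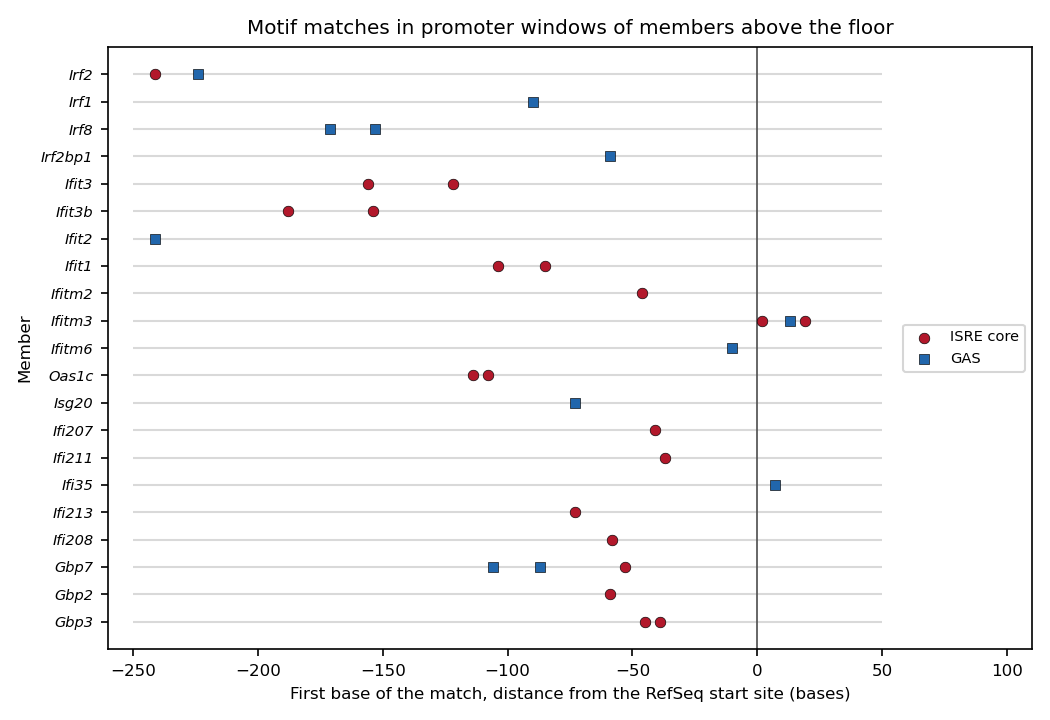
Position of ISRE core (circles) and GAS (squares) matches in the promoter windows of members above the floor; the x axis gives the distance in bases of the match's first base from the RefSeq start site, which is at 0, and each line is 1 gene with a match. Matches in Ifit3, Ifit3b, Ifit1, Ifi207 and Ifi211 lie before the start site, and those in Ifitm3 after it.

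GW4869 against vehicle asks how fat differs in mice given the inhibitor of vesicle release, in sham and in overloaded mice separately. The arrays do not read vesicle release itself. Most members stood higher under GW4869 in both settings. In overloaded mice 25 of 43 members were at least 1.5-fold higher, where 18.4% of all 11703 genes above the floor were, and 4 were lower, where 18.8% of all genes were. In sham mice 33 members were higher (28.9% of all genes) and 2 lower (14.4%). The median log2 difference of members was 0.72 in overloaded and 1.05 in sham mice, while that of all genes was -0.04 and 0.27, so members exceeded the median gene by 0.76 and 0.78.

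These 2 comparisons share no array. In both, 20 members were at least 1.5-fold higher, or 46.5% of the 43, where 6.61% of all genes were. Both GW4869 arrays read above both vehicle arrays for 28 members (65.1%; 22.0% of all genes), and both read below them for 0 members (11.2% of all genes). The median over members was 9.09 on GW4869 overload, 8.51 on GW4869 sham, 8.07 on vehicle overload and 7.74 on vehicle sham. Vehicle sham was the lowest array for 35 members (45.9% of all genes), and GW4869 overload the highest for 26 (26.7% of all genes). GW4869 sham was the highest for 8 (23.4%), vehicle overload for 7 (30.1%) and vehicle sham for 2 (19.8%). Both overload arrays read above both sham arrays for 4 members (17.4% of all genes): Gbp4, Gbp7, Irf2bp1 and Oas1b.

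**Figure D2:**
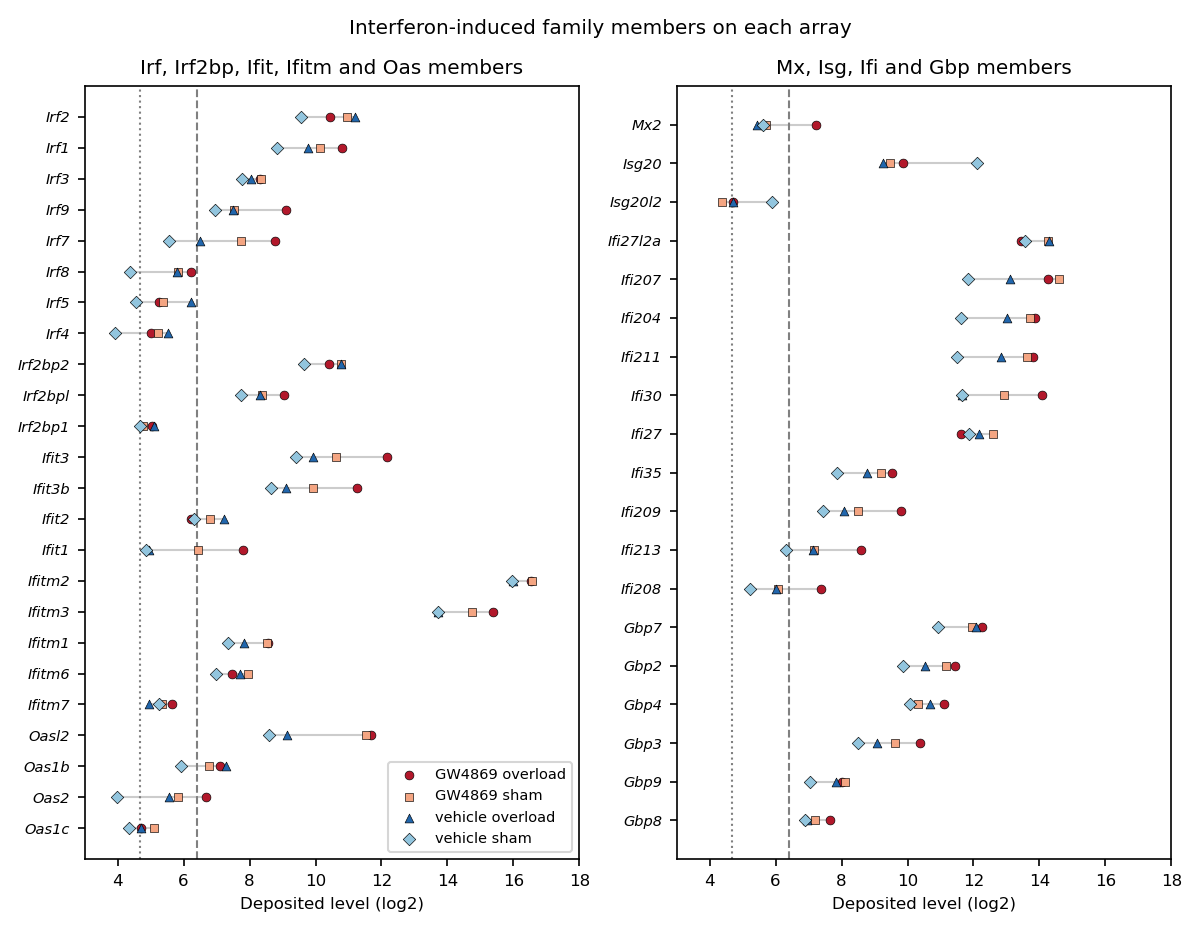
Deposited log2 level (x axis) of each member above the floor on the GW4869 overload (circles), GW4869 sham (squares), vehicle overload (triangles) and vehicle sham (diamonds) arrays; the dotted line is the floor at 4.67 and the dashed line the antigenomic 95th percentile at 6.40. Vehicle sham lies at the low end for 35 of 43 members, while Isg20 has its highest reading there, at 12.09.

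Among the regulators, Irf7 stood higher under GW4869 in both settings and Irf9 in overloaded mice. Irf7, which amplifies type I interferon production, had 8.77 on GW4869 overload and 7.75 on GW4869 sham, against 6.50 on vehicle overload and 5.57 on vehicle sham. Both GW4869 readings were above background, and the vehicle sham reading lay within it. Its log2 differences for GW4869 were 2.28 in overloaded and 2.18 in sham mice. Irf9, the DNA-binding partner of STAT2, had 9.09 on GW4869 overload and 7.51, 7.50 and 6.96 on GW4869 sham, vehicle overload and vehicle sham. It thus stood apart on 1 array, 1.59 higher than vehicle in overload and 0.55 in sham.

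Irf1, an activator induced by interferon gamma, had 10.81 and 10.12 on the GW4869 overload and sham arrays, against 9.78 and 8.84 on the vehicle overload and sham arrays. Both GW4869 arrays read above both vehicle arrays, as for 22.0% of all genes. The differences were 1.04 in overloaded and 1.28 in sham mice. Irf3, the constitutive factor that sensors activate, had 8.30 and 8.35 on the GW4869 overload and sham arrays, against 8.04 and 7.77 on the vehicle overload and sham arrays, differences of 0.26 and 0.59. Irf2, which competes with IRF1 for its sites, ran otherwise, at 10.44 and 10.97 on the GW4869 overload and sham arrays, and 11.19 and 9.56 on the vehicle overload and sham arrays. It was lower by 0.75 under GW4869 in overloaded mice and higher by 1.41 in sham mice, and vehicle sham was its low array. Irf4, Irf5 and Irf8, factors of lymphoid and myeloid cells, did not pass 6.40 on any array, and their readings lay between 3.93 and 6.23. Of the IRF2 partners, Irf2bpl had 9.04 and 8.37 on the GW4869 overload and sham arrays, against 8.32 and 7.74 on the vehicle overload and sham arrays, and Irf2bp2 10.41 and 10.78 under GW4869 (overload, sham) against 10.78 and 9.66 under vehicle (overload, sham). Irf2bp1 lay within background, between 4.68 and 5.12.

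The Ifit genes gave the highest family median in overloaded mice, 2.21 over 4 members, with 3 higher and 1 lower. Ifit3 and Ifit3b, which may not be separate measurements, set that median. Ifit3, whose window above holds 2 ISRE core matches, had 12.16 and 10.61 on the GW4869 overload and sham arrays, against 9.92 and 9.41 on the vehicle ones. Its differences were 2.24 in overloaded and 1.20 in sham mice. Ifit3b, a near-identical neighbour whose probes may read the same RNA, followed with 11.27 and 9.93 under GW4869 (overload, sham) against 9.10 and 8.66 under vehicle (overload, sham). Ifit1, which recognises uncapped or incompletely capped RNA, had 7.79 and 6.42 under GW4869, while its vehicle readings of 4.95 and 4.87 lay within background. Ifit2 ran the other way in overloaded mice, with 6.23 on GW4869 overload against 7.23 on vehicle overload, a difference of -1.001. In sham mice Ifit2 had 6.81 under GW4869 against 6.31 under vehicle. The GW4869 overload and vehicle sham readings of Ifit2 lay within background. Ifit1bl1, an Ifit1-like gene outside the 43, read 5.35 on GW4869 sham and under the floor on the other arrays.

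Of the OAS family 4 of 12 measured members lay above the floor. Oasl2, an OAS-like protein with ubiquitin-like domains, gave the highest member difference in sham mice, with 11.53 on GW4869 sham against 8.59 on vehicle sham. In overloaded mice it had 11.67 under GW4869 against 9.15 under vehicle. The 2 GW4869 readings differed by 0.14, and the differences from vehicle were 2.52 in overloaded and 2.94 in sham mice. Oas2 had 6.67 and 5.83 under GW4869 (overload and sham), against 5.55 on vehicle overload and a reading under the floor on vehicle sham. Its difference in sham mice was 1.17 or more, within the background range. Oas1b read 7.10 and 6.77 on the GW4869 overload and sham arrays, against 7.29 and 5.91 on the vehicle overload and sham arrays. Oas1c read 4.70 and 5.10 under GW4869 (overload, sham) against 4.72 and 4.34 under vehicle (overload, sham), all within background.

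Mx1 and Isg15 read within background. Mx2, a dynamin-like GTPase, had 7.21 on GW4869 overload, while GW4869 sham, vehicle overload and vehicle sham read 5.70, 5.43 and 5.60. Mx1, its restriction factor paralogue, read 6.11 on GW4869 overload and under the floor on the others. Isg15, the ubiquitin-like modifier, read 6.01 there and 4.10, 3.40 and 3.51 on GW4869 sham, vehicle overload and vehicle sham. Oas1a and Oas1g likewise passed the floor on GW4869 overload alone, at 5.18 and 4.98. These 4 genes are not among the 43, and none of their readings passed 6.40.

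Of the IFITM genes 5 of 6 were above the floor, and at least 1.5-fold higher under GW4869 were Ifitm1, Ifitm3 and Ifitm7 in overloaded mice and Ifitm1, Ifitm3 and Ifitm6 in sham mice. Ifitm3, which restricts entry of enveloped viruses, had 15.39 and 14.76 on the GW4869 overload and sham arrays, against 13.70 and 13.71 on the vehicle overload and sham arrays. Both GW4869 arrays of Ifitm3 read above both vehicle arrays, as for 22.0% of all genes. The differences were 1.69 in overloaded and 1.05 in sham mice. Ifitm2 had 16.55 and 16.55 under GW4869 (overload, sham) against 15.99 and 15.97 under vehicle (overload, sham), differences of 0.55 and 0.58, just inside 1.5-fold. Ifitm1 had 8.56 and 8.53 under GW4869 (overload, sham) against 7.82 and 7.35 under vehicle (overload, sham). Ifitm6 did not have both GW4869 arrays above both vehicle arrays. It read 7.48 and 7.97 under GW4869 (overload, sham) against 7.72 and 6.99 under vehicle (overload, sham). Ifitm7 lay within background.

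The Ifi symbols join unrelated proteins, and 10 of 13 measured were above the floor. Ifi30, a lysosomal thiol reductase of antigen-presenting cells, had 14.09 on GW4869 overload and 12.92 on GW4869 sham, against 11.66 and 11.64 on the vehicle arrays. Its differences were 2.43 and 1.28. Ifi204, Ifi207 and Ifi211 belong to the HIN-domain proteins that bind DNA, and their genes neighbour Ifi208, Ifi209, Ifi213 and Ifi214 in the RefSeq gene order. All 6 neighbours above the floor were at least 1.5-fold higher under GW4869 in both settings as deposited, where 6.61% of all genes were. In sham mice the calls of Ifi208, Ifi209 and Ifi213 were lost on centring by adipocyte genes, at 0.35, 0.58 and 0.37, and both sham readings of Ifi208 lay within background. Ifi207 had 14.25 and 14.59 on the GW4869 overload and sham arrays, against 13.12 and 11.84 on the vehicle overload and sham arrays, and Ifi204 had 13.87 and 13.70 under GW4869 (overload, sham) against 13.01 and 11.63 under vehicle (overload, sham). Ifi211 had 13.79 and 13.61 under GW4869 (overload, sham) against 12.82 and 11.51 under vehicle (overload, sham). Ifi209 had 9.79 and 8.51 under GW4869 (overload, sham) against 8.07 and 7.43 under vehicle (overload, sham), Ifi213 had 8.59 and 7.18 under GW4869 (overload, sham) against 7.13 and 6.31 under vehicle (overload, sham), and Ifi208 had 7.39 and 6.06 under GW4869 (overload, sham) against 6.02 and 5.22 under vehicle (overload, sham). Probe sets of such related sequences can read each other's RNA, so the 6 may not be separate measurements.

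Ifi27, Ifi27l2a and Ifi27l2b form another run of neighbours, with Ifi27l2b under the floor. Ifi27, a small hydrophobic protein of membranes, had 11.63 on GW4869 overload against 12.17 on vehicle overload, and 12.59 on GW4869 sham against 11.87 on vehicle sham. Ifi27l2a had 13.45 on GW4869 overload against 14.28 on vehicle overload, and 14.25 on GW4869 sham against 13.57 on vehicle sham. The differences for GW4869 in overloaded mice were -0.53 and -0.83, of which that of Ifi27l2a was past 1.5-fold, and those in sham mice were 0.72 and 0.68. Ifi35, a regulator of innate signalling, had 9.52 and 9.19 on the GW4869 overload and sham arrays, against 8.76 and 7.87 on the vehicle overload and sham arrays.

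All 6 GBP genes, GTPases that attack the membranes around intracellular pathogens, had positive differences for GW4869, as did 47.0% of all genes in overloaded and 67.2% in sham mice. Past 1.5-fold were 3 in overloaded and 4 in sham mice. Gbp2 had 11.45 and 11.16 on the GW4869 overload and sham arrays, against 10.52 and 9.86 on the vehicle overload and sham arrays. Gbp3 had 10.37 and 9.61 under GW4869 (overload, sham) against 9.06 and 8.49 under vehicle (overload, sham), differences of 1.30 and 1.13. For both genes both GW4869 arrays read above both vehicle arrays, as for 22.0% of all genes. Gbp7 had 12.26 and 11.95 under GW4869 (overload, sham) against 12.08 and 10.92 under vehicle (overload, sham), so that vehicle sham alone was apart. Gbp4 read 11.10 and 10.31 under GW4869 (overload, sham) against 10.68 and 10.08 under vehicle (overload, sham), and Gbp8 and Gbp9 differed by 0.69 and 0.20 in overloaded and 0.31 and 1.07 in sham mice. Centred on adipocyte genes, the sham differences of Gbp4 and Gbp8 turned negative, to -0.27 and -0.19, and those of Gbp7 and Gbp9 fell short of 1.5-fold, at 0.53 and 0.58.

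Isg20 and Isg20l2 were the 2 members at least 1.5-fold lower under GW4869 in sham mice. Isg20, an exonuclease of single-stranded RNA, had 9.87 and 9.48 under GW4869, against 9.26 on vehicle overload and 12.09 on vehicle sham. The differences for GW4869 were 0.62 in overloaded and -2.62 in sham mice. Isg20l2, an exonuclease of ribosomal RNA processing, also peaked on vehicle sham, at 5.87, within background. Vehicle sham was the array with most sperm and testis RNA, and the part of that RNA in these readings was not tested.

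**Figure D3:**
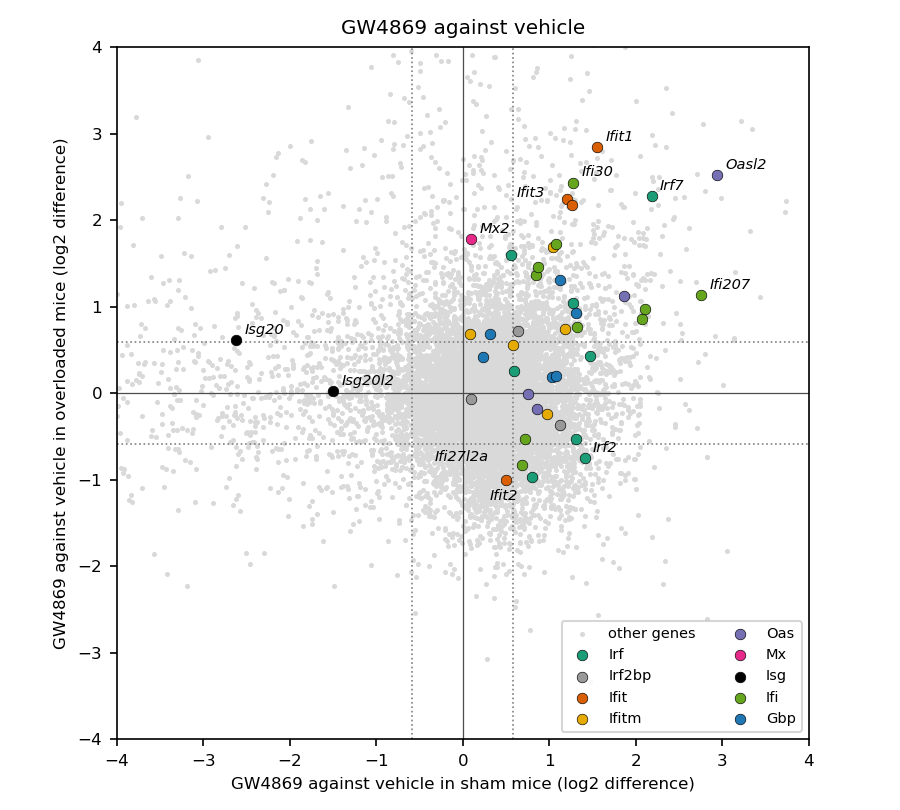
Log2 difference of GW4869 against vehicle in sham mice (x axis) and in overloaded mice (y axis) for members, coloured by family, and all other genes above the floor in grey; dotted lines mark 1.5-fold, and 518 genes, none of them members, lie outside the axes. Oasl2, Irf7, Ifit1, Ifit3 and Ifi30 lie in the upper right corner, and Isg20 lies at -2.62 on the x axis.

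Centring on adipocyte genes moved the all-gene median to 0.40 in overloaded and -0.23 in sham mice, and gave 31 members higher and 0 lower in overloaded mice, where 38.0% of all genes were higher and 6.15% lower on that scale. At least 1.5-fold under all of 4 scalings (as deposited, centred on all genes, centred on adipocyte genes, and with the trend on level removed) were 24 members higher and 0 lower in overloaded mice. The same applied to 15.9% and 6.15% of all genes. In sham mice these were 19 higher and 2 lower (10.1% and 14.4% of all genes). Among them Irf4, Irf8, Oas2 and Isg20l2 read within background on both sham arrays, and Ifitm7 of the 24 on both overload arrays. The sign depended on the scaling for 6 members in overloaded and 5 in sham mice, Mx2 in sham mice among them.

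Of 30 other interferon-induced genes measured (a list that also holds the member Ifi44l), 28 were above the floor, with 16 higher and 1 lower in overloaded mice and 22 higher and 0 lower in sham mice. Their medians were 0.70 and 1.00. Over all genes, 18.4% were higher and 18.8% lower in overloaded mice, and 28.9% higher and 14.4% lower in sham mice. Rtp4, which binds viral RNA, had 7.61 and 5.52 on the GW4869 overload and sham arrays, against 4.91 and 4.86 on the vehicle overload and sham arrays, and Cxcl10, a chemokine for T cells, 7.90 and 4.82 under GW4869 (overload, sham) against 4.62 and 4.27 under vehicle (overload, sham). Rsad2, the antiviral enzyme viperin, had 8.04 and 7.89 under GW4869 (overload, sham) against 7.55 and 6.29 under vehicle (overload, sham), and Trim30a 7.92 and 7.98 under GW4869 (overload, sham) against 7.56 and 6.06 under vehicle (overload, sham). Cxcl9, induced by interferon gamma, was lower under GW4869 in overloaded mice, at 10.11 on GW4869 overload against 11.08 on vehicle overload.

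Pathway counts are read against the 18.4% of all genes higher in overloaded and 28.9% in sham mice. JAK and STAT genes were higher in 3 of 5 measured in overloaded mice and 4 of 5 in sham mice. Stat2 had 9.59 and 8.67 on the GW4869 overload and sham arrays, against 8.09 and 7.73 on the vehicle overload and sham arrays. Sensors and adaptors had 5 of 12 higher and 1 lower in overloaded mice and 7 higher and 1 lower in sham mice. Sting1, the adaptor of cytosolic DNA sensing, had 10.53 and 8.74 under GW4869 (overload, sham) against 8.01 and 6.97 under vehicle (overload, sham), and Tlr7, a receptor for single-stranded RNA, 10.11 and 11.54 under GW4869 (overload, sham) against 9.75 and 8.82 under vehicle (overload, sham). Interferon receptors had 1 of 5 higher in overloaded mice, Ifngr2 at 11.48 on GW4869 overload against 9.54 on vehicle overload, and 5 of 5 in sham mice, where Ifngr1 had 14.84 on GW4869 sham against 14.15 on vehicle sham, a difference of 0.69 beside an all-gene median of 0.27. Of the negative regulators 3 of 5 were higher and 1 lower in overloaded mice and 2 of 5 higher in sham mice. Usp18, which blocks the type I receptor, had 7.19 and 6.56 under GW4869 (overload, sham) against 5.87 and 5.68 under vehicle (overload, sham).

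The ligands themselves were near background. Of 18 type I and III interferon genes measured, 17 lay under the floor on average, Ifnb1 among them with 3.62 and 4.49 on the GW4869 overload and sham arrays, and 3.63 and 3.08 on the vehicle overload and sham arrays. Ifna5 had 6.97, 7.06, 7.31 and 6.81 on GW4869 overload, GW4869 sham, vehicle overload and vehicle sham. Ifng was under the floor on every array, and Il15, a cytokine of lymphoid cells, had 6.69 and 6.83 on the GW4869 overload and sham arrays, against 5.84 and 5.20 on the vehicle overload and sham arrays. Il15 and Il18 were the 2 genes above the floor of 4 measured type II ligand and inducer genes, with 1 higher in overloaded and 2 in sham mice.

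Macrophage markers also stood higher under GW4869. Of 13 measured markers 9 were higher and 0 lower in overloaded mice and 13 higher in sham mice, with medians of 1.39 and 1.60. Over all genes, 18.4% were higher and 18.8% lower in overloaded mice, and 28.9% higher and 14.4% lower in sham mice. Adgre1, the F4/80 antigen, had 11.02 and 9.52 on the GW4869 overload and sham arrays, against 8.47 and 7.97 on the vehicle overload and sham arrays. Neutrophil markers above the floor were higher in 4 of 5 and lower in 1 in overloaded mice, and higher in 5 of 5 in sham mice. Retnlg and S100a8 had 8.18 and 8.63 on GW4869 overload and 5.79 or less on the others, whereas Elane had 4.69 on GW4869 overload and 5.87 on vehicle overload, both within background. Cd3e, a marker of T cells, was at 4.69 or less on every array, and Siglech, of plasmacytoid dendritic cells, at 5.52 and 6.51 on the GW4869 overload and sham arrays, and 6.05 and 5.71 on the vehicle overload and sham arrays. T and NK cell markers had 3 of 15 above the floor, B cell markers 1 of 6 and dendritic cell markers 4 of 9. In overloaded mice 1 of these T and NK cell markers was higher and 1 lower. The B cell marker was higher, and of the dendritic cell markers 1 was higher and 1 lower. In sham mice 2, 1 and 2 of these lists were higher and 0 lower. Klrb1c, a receptor of NK cells, had 7.10 on GW4869 overload against 4.88 on vehicle overload, and Cd79a, of the B cell receptor, 6.88 on GW4869 overload against 4.49 on vehicle overload, where both vehicle readings lay within background. Endothelial markers were lower in 8 of 10 in overloaded mice and higher in 3 of 10 in sham mice, and smooth muscle markers were higher in 6 of 8 in overloaded mice. Adipocyte markers were lower in 9 of 16 and higher in 0 in overloaded mice, and higher in 1 and lower in 0 in sham mice. Sperm and testis markers were higher in 6 of 12 and lower in 2 in overloaded mice, and lower in 12 in sham mice. The part of these cells in the members' differences was not tested. Epididymal markers were high on GW4869 overload, where Ifit1, Ifit3, Irf9 and Mx2 had their highest readings, and their part was not tested either.

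Leaving out the array with most epididymal and the array with most sperm marker RNA leaves GW4869 sham against vehicle overload, which differ in surgery as well as drug. This pair was compared after the data were seen. Of the 43 members 12 were at least 1.5-fold higher (14.9% of all genes) and 1 lower (11.1%), with a median of 0.28 and one of -0.0026 over all genes. Oasl2 was 2.38 higher on GW4869 sham, Ifi207 1.47, Ifit1 1.47, Ifi30 1.26, Irf7 1.26 and Ifitm3 1.06. For Ifit1 the GW4869 sham reading was 6.42, and the vehicle overload reading of 4.95 lay within background. On GW4869 sham against vehicle overload, distal tract genes had medians of 12.57 and 3.35, and smooth muscle markers 13.02 and 7.57. Macrophage markers had medians of 10.81 and 9.81 on the same 2 arrays. Adipocyte markers (17.28 and 17.42) and endothelial markers (9.58 and 9.70) were slightly lower on GW4869 sham. The part of these cells was not tested.

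**Figure D4:**
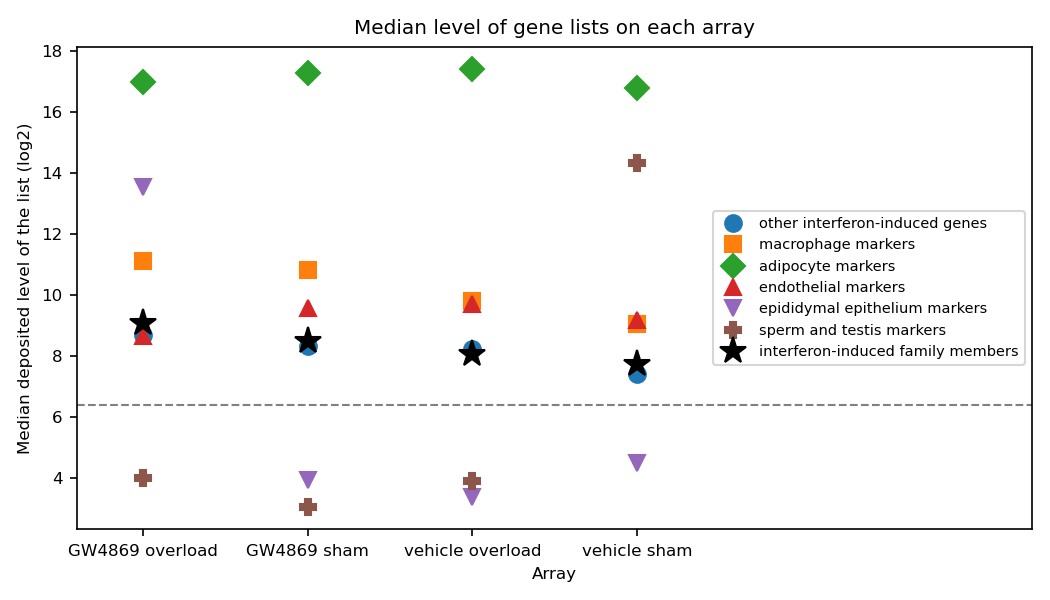
Median deposited log2 level (y axis) of the members above the floor (stars) and of 6 gene lists on the GW4869 overload, GW4869 sham, vehicle overload and vehicle sham arrays; the dashed line marks 6.40, the antigenomic 95th percentile. Members lie between 9.09 and 7.74, macrophage markers between 11.10 and 9.05, epididymal markers are high on GW4869 overload and sperm markers on vehicle sham.

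Overload against sham asks how fat differs after muscle loading, and the contrast under GW4869 repeats it in mice given that inhibitor. The overload comparisons share no array with each other, but each shares its arrays with the GW4869 comparisons. Under GW4869, 16 of 43 members were at least 1.5-fold higher (13.4% of all genes) and 3 lower (15.3%). Under vehicle 24 were higher (30.2% of all genes) and 2 lower (16.9%). The medians were 0.32 under GW4869 and 0.64 under vehicle, against -0.04 and 0.26 over all genes, so members exceeded the median gene by 0.36 and 0.39. Under all 4 scalings 16 were higher and 1 lower under GW4869 (12.4% and 7.06% of all genes), and 9 higher and 2 lower under vehicle (6.31% and 16.3%). Of these 9, Irf4, Irf5, Irf8 and Oas2 read within background on both vehicle arrays, as did Isg20l2 of the 2. Under vehicle the sign of 17 members depended on the scaling, and centred on adipocyte genes 9 members were higher (6.31% of all genes) and 7 lower (38.2%). Under GW4869 that centring gave 25 higher (27.1% of all genes) and 1 lower (7.06%), and it moved the all-gene medians to 0.27 under GW4869 and -0.37 under vehicle. Past 1.5-fold in opposite directions were Ifi27l2a and Ifit2, or 2 of 43 members (9.72% of all genes), and neither was so when centred on adipocyte genes. Each difference of Ifit2 used 1 reading within background.

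Under GW4869, Irf9, Ifit3 and Mx2 had the highest log2 differences, at 1.58, 1.56 and 1.51, and the GW4869 sham reading of Mx2, 5.70, lay within background. Ifi213, Ifit1 and Ifit3b followed with 1.41, 1.37 and 1.34, and Irf7 was 1.02 higher. Within the cluster of HIN-domain genes, Ifi208, Ifi209 and Ifi213 were 1.32, 1.28 and 1.41 higher, while Ifi204, Ifi207 and Ifi211 had 0.17, -0.34 and 0.18. The lowest were Ifi27 at -0.95, Ifi27l2a at -0.80 and Ifit2 at -0.59, and next to them Irf2, Ifitm6 and Oas1c had -0.53, -0.49 and -0.39. Marker counts are read against 13.4% of all genes higher and 15.3% lower. Epididymal markers had 11 of 13 higher and 1 lower, sperm and testis markers 10 of 12 higher, and neutrophil markers 4 of 5 higher and 1 lower. Smooth muscle markers were lower in 8 of 8, distal tract genes in 5 of 5, endothelial markers in 6 of 10 and adipocyte markers in 3 of 16. In these 4 lists 0 were higher. Macrophage markers had 5 of 13 higher, 1 lower and a median of -0.05. The part of these cells was not tested.

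Under vehicle, Irf2 was at 11.19 in overload against 9.56 in sham, a difference of 1.63. Ifi204, Ifi211 and Ifi207 were 1.38, 1.31 and 1.28 higher, Oas1b 1.38, Gbp7 1.15 and Irf2bp2 1.12. Irf4, Irf5, Irf8 and Oas2 had differences of 1.43 to 1.66 as deposited, between readings within background. Ifit1, Ifit3 and Ifit3b had 0.08, 0.51 and 0.43, each with a negative sign when centred on adipocyte genes. Ifi30 and Ifitm3 had 0.02 and -0.01, and Mx2 and Ifitm7 -0.17 and -0.30. Isg20 was lower by 2.84, with 9.26 in overload against 12.09 in sham, and Isg20l2 by 1.17. Sperm and testis markers were lower in 12 of 12 and smooth muscle markers in 8 of 8, where 16.9% of all genes were lower and 30.2% higher. Distal tract genes were lower in 5 of 5, with a median of -7.81, and epididymal markers were lower in 7 of 13 and higher in 1. Neutrophil markers were higher in 4 of 5 and lower in 0, between readings within background on both vehicle arrays. Endothelial markers were higher in 6 of 10 with a median of 0.84, macrophage markers in 6 of 13 (1 lower) with 0.57, and adipocyte markers in 6 of 16 (1 lower) with 0.33. The part of these cells was not tested.

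**Figure D5:**
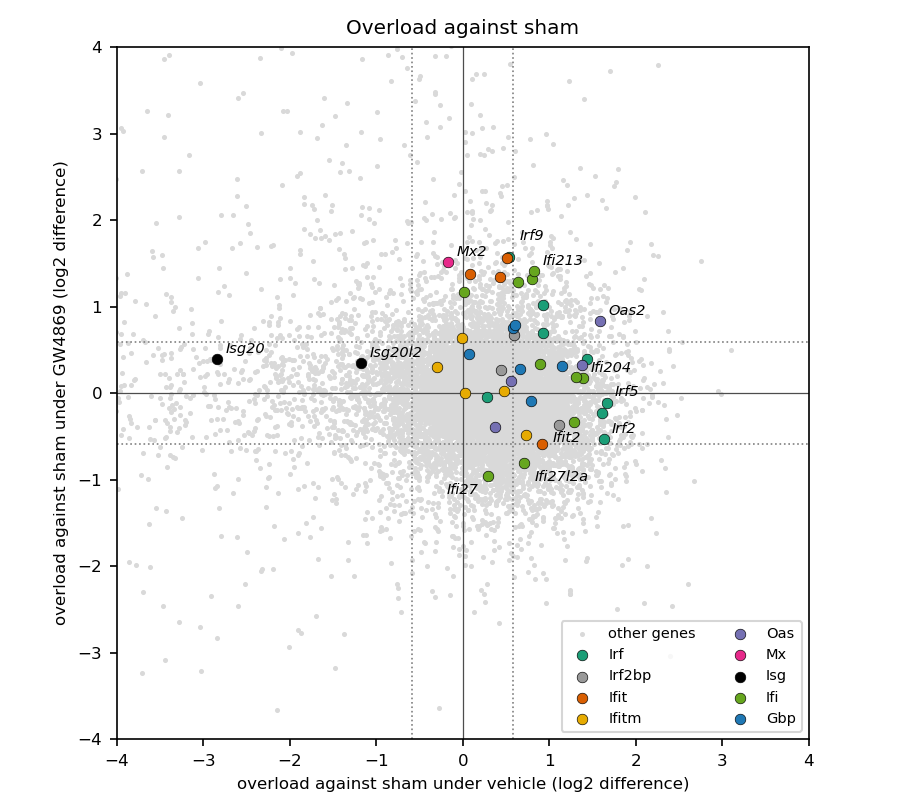
Log2 difference of overload against sham under vehicle (x axis) and under GW4869 (y axis) for members, coloured by family, and all other genes above the floor in grey; dotted lines mark 1.5-fold, and 503 genes, none of them members, lie outside the axes. Irf9 and Mx2 lie high on the y axis, Irf2 and Irf5 far right on the x axis, and Ifi27 is the lowest member on the y axis.

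Subtracting the vehicle overload difference from the GW4869 one gave a member median of -0.33, while the median gene had -0.27. It was at least 1.5-fold higher for 12 members (21.5% of all genes) and lower for 17 (36.3%). The highest were Isg20 (3.23), Mx2 (1.68), Isg20l2 (1.52), Ifit1 (1.29) and Ifi30 (1.16). The lowest were Irf2 (-2.16), Irf4 (-1.84), Irf5 (-1.77), Ifi207 (-1.62) and Ifi27l2a (-1.52). Of these, Irf4, Irf5 and Isg20l2 lay within background on every array, so their values and ranks are not resolved, and with the floor in place of vehicle sham the overload difference of Irf4 under vehicle was 0.87 and not 1.61. The median was 0.61 when centred on adipocyte genes and 0.06 after trend removal, so its sign depends on the scaling.

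For overload under vehicle, the 14 members above the floor with a match and the 20 without it had medians of 0.62 and 0.61. For GW4869 in overloaded mice 10 of 14 with a match were higher and 1 lower, with a median of 1.22. Without a match 11 of 20 were higher and 2 lower, with a median of 0.65, where 18.4% of all genes were higher and 18.8% lower. In sham mice 13 of 14 with a match and 14 of 20 without were higher (28.9% of all genes), and 0 and 2 lower (14.4%), with medians of 1.16 and 1.03. The 14 include Ifit3 and Ifit3b, and Ifi207, Ifi208, Ifi211 and Ifi213, which may not be separate measurements. For overload under GW4869 the medians were 0.47 with a match and 0.32 without. A match is a description of the letters in the window and was set against no binding data.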

How the data were processed

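For each of 4 arrays the authors deposited 1 log2 value per probe set. The submitters' processing notes name Partek and RMA, with versions, settings and build not given in the sources used here. Of 28846 rows, GEO's annotation pairs 19572 with 1 symbol and 0 with several, and leaves 2615 transcript clusters without one. The probe set with the highest mean stood for each of 19505 genes, and 11703 lay above the floor. All 59 members were found in RefSeq by Entrez identifier, with 0 symbols altered. Deposited values reach log2 19.93, so a fold is one on the deposited scale only. Differences of log2 values between single arrays were counted at 1.5-fold with pandas 2.3.3. No test was run, because no group has a replicate array to give its spread; precision is set by the number of arrays.

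Named are the 6 highest and 6 lowest members of each comparison, the 5 highest and 5 lowest of the difference between overload differences, the highest member of each family, members fixed by role, and genes of the pathway and marker lists. Further members and Cd3e were named after their values were seen, so that all members are accounted for. The members and lists were chosen with earlier results of these data known. Counting was tested on simulated data. Alternatives were 2 centrings, values set to the floor, no filter, a higher floor, and the mean of probe sets. Trend removal (lowess, statsmodels 0.14.6, span 0.2) and the comparison of GW4869 sham with vehicle overload were added after seeing the data.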

Additional observations from a re-analysis of the deposited data

Results flagged for a closer look

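Overload differences past 1.5-fold in opposite directions under GW4869 and under vehicle were found for 2 of 43 members, Ifi27l2a and Ifit2, which is 4.65% of members, where 9.72% of all genes had such a pair. Ifi27l2a had -0.80 under GW4869 and 0.71 under vehicle. Ifit2 had -0.59 under GW4869 and 0.91 under vehicle. Its GW4869 overload and vehicle sham readings, 6.23 and 6.31, lay within background. With 1 array per group, the difference between the 2 effects was not tested. Centred on adipocyte genes, neither pair was past 1.5-fold, with -0.50 and 0.08 for Ifi27l2a and -0.28 and 0.28 for Ifit2, and after trend removal Ifit2 under GW4869 had -0.52.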

How the results depend on the processing

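No paired analysis was possible because each group has 1 array, and no array could be left out as a replicate. Centring on all genes and setting values to the floor kept all 13 counts and medians within 1.5 times of those reported. Averaging probe sets is no check here, because each member has 1 probe set and its values cannot change. Centred on adipocyte genes, overload under GW4869 had 25 members higher and 1 lower (27.1% and 7.06% of all genes) with a median of 0.63. Overload under vehicle then had 9 higher and 7 lower (6.31% and 38.2%) with 0.012, GW4869 in overloaded mice 0 lower (6.15%) with 1.16, and GW4869 in sham mice 19 higher (10.1%) with 0.55. The median difference between the overload differences reversed, to 0.61. After trend removal, overload under vehicle had 13 higher (15.3% of all genes) with 0.29, beside an all-gene median of -0.04. The median difference between the overload differences reversed, to 0.059. Without a filter on low values, 5 of 59 members were lower for overload under GW4869 (14.7% of all genes), and the median difference between the overload differences was -0.16. With the higher floor, 1 member was lower for overload under vehicle and 1 for GW4869 in sham mice. GW4869 sham against vehicle overload, set beside both GW4869 comparisons, gave 12 higher, 1 lower (14.9% and 11.1% of all genes) and a median of 0.28. The cause of these changes was not tested beyond the shift that each centring adds to every gene. Depth in the sense of read counts does not apply, and 28 of 59 members stood above the antigenomic background on every array.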
